A study of Mus musculus with 24 samples.

Results

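Perivascular and infiltrating macrophages were followed in brain microvessels through 10 genes, which are 10 of the 17270 genes in the deposited table of normalized counts. The rows were found by their gene symbols. They comprise 4 genes known from resident perivascular macrophages (Pf4, Mrc1, Cd163 and Lyve1), 3 known from infiltrating and repair macrophages (Arg1, Spp1 and Gpnmb), and the scavenger receptor Msr1, the lysosomal protein Cd68 and the secreted protein Cd5l. All 10 genes passed the filter on low values, a mean above 5 normalized counts over all libraries. Arg1 and Cd5l passed only through the ipsilateral stroke libraries in which they were high. Over the 18 libraries without the ipsilateral stroke hemisphere, their means were 2.11 and 0.389 normalized counts. The genes were chosen from earlier results of these same libraries, in which Arg1 led the increases 24 h post-stroke and Cd5l those at 7 days. Their values and differences are therefore given as a description, with counts of calls and no p-values.

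The microvessels came from male C57BL/6J mice aged 10 to 12 weeks, subjected to 60 min of transient middle cerebral artery occlusion (tMCAO), which blocks and then reopens the artery with a filament, or to sham surgery, in which the filament was withdrawn at once. Ipsilateral (operated side) and contralateral hemispheres were collected after 24 h or 7 days, which gave 8 groups of 3 libraries and 24 libraries in all. Each library pooled 3 hemispheres, so that 9 animals stood behind a group, and the sources do not say whether equal replicate numbers share animals. Brains were perfused, meninges were peeled off and vessels were retained on a 40 μm mesh, so that the material holds vessel fragments with whatever cells adhere to them. Totals were 15924780 to 18787932 normalized counts per library, a unit that divides reads by a size factor and is not a number of reads. The size factors estimated from the spacing of low values were 0.805 to 1.24, which corresponds to 13691467 to 20033951 estimated reads. The fitted and observed spacing correlated at only 0.306 to 0.86 (median 0.633) across libraries, so these estimates are rough. Endothelial markers (8 genes, among them Cldn5 and Pecam1) summed to between 332820 and 559554 in every library. Since RNA was sequenced in bulk, fewer cells of a type and less RNA per cell cannot be told apart.

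Perivascular macrophages are long-lived cells that lie between the vessel wall and the glial border, where they take up material from the perivascular fluid and present scavenger and mannose receptors on their surface. Blood monocytes enter the brain after ischaemia and turn into macrophages, which clear debris, handle lipid and haem from dying cells and release factors for tissue repair. Many of their genes are shared with microglia, the resident macrophages of the brain tissue.

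The sequences before the start of 4 of the genes are shown, for Pf4 and Mrc1 because both were lower 7 days post-stroke, for Cd5l because it was high at 7 days alone, and for Cd68 because its window holds a motif that no other shown window holds. Each is the stretch of 250 bases upstream of the RefSeq start in GRCm38.p6, written 5′ to 3′ in the direction of the gene. Capitals mark GAGGAAG, a core of the sites of ETS factors such as PU.1, or TGANTCA, the AP-1 site, on either strand.
Pf4, chr5:90772185-90772434, plus strand: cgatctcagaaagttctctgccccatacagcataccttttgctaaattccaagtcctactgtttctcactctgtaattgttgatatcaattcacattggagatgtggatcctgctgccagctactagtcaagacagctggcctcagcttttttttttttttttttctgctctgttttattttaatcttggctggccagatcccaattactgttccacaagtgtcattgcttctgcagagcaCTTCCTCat
Mrc1, chr2:14229164-14229413, plus strand: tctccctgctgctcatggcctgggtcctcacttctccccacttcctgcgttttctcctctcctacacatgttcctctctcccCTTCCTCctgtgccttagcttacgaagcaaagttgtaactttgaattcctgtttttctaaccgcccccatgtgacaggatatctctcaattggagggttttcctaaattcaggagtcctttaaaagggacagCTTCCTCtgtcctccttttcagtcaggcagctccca
Cd5l, chr3:87357631-87357880, plus strand: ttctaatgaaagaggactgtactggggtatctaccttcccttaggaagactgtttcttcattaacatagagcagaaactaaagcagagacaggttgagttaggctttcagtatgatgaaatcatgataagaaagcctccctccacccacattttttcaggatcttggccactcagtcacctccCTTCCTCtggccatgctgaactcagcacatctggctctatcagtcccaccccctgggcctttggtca
Cd68, chr11:69666171-69666420, minus strand: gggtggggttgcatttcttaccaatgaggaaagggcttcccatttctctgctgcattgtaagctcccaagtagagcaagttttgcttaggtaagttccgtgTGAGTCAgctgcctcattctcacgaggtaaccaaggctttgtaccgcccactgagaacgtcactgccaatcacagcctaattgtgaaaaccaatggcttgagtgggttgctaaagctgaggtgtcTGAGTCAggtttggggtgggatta

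RefSeq windows were found for 7 of the 10 genes (Pf4, Mrc1, Cd163, Spp1, Gpnmb, Cd68 and Cd5l). GAGGAAG was present before Pf4 (bases 9 to 3 before the start), Cd5l (bases 67 to 61), Spp1 (bases 113 to 107, in 1 of its 2 windows) and Mrc1 (bases 168 to 162 and bases 36 to 30), thus for 4 of the 7 genes, while 10.6% of all 32851 windows of this length hold it. TGANTCA was present before Cd68 only (bases 149 to 143 and bases 24 to 18) and is held by 6.75% of all windows. The E-box CACGTG, found in 6.02% of all windows, was present in no window of the 7 genes. The 3 motifs do not overlap in letters, and such matches describe the sequence and not the binding of a factor.

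In microvessels of sham-operated mice most of the 10 genes were well detected. Levels between genes were compared as normalized counts per kilobase of merged exons. Over the 12 sham libraries, Spp1 (osteopontin, a secreted phosphoprotein) was the highest, with a median of 1858 normalized counts per kilobase (893 to 2921). It was followed by Pf4 (347, range 160 to 659), Mrc1 (257, range 166 to 308) and Cd68 (257, range 193 to 369), whose ranges overlapped, so that their order is not settled. Cd163 (median 111, range 57.3 to 172) overlapped with Lyve1 (72.6, range 34.6 to 129), and at its upper end also with Pf4 and Mrc1. Msr1 (16.6, range 7.41 to 26.8) and Gpnmb (3.61, range 0.46 to 29.3) were lower with overlapping ranges. Arg1 and Cd5l had medians of 0.5 and 0 normalized counts over the sham libraries, and never exceeded 2 and 4 normalized counts there.

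**Figure D1:**
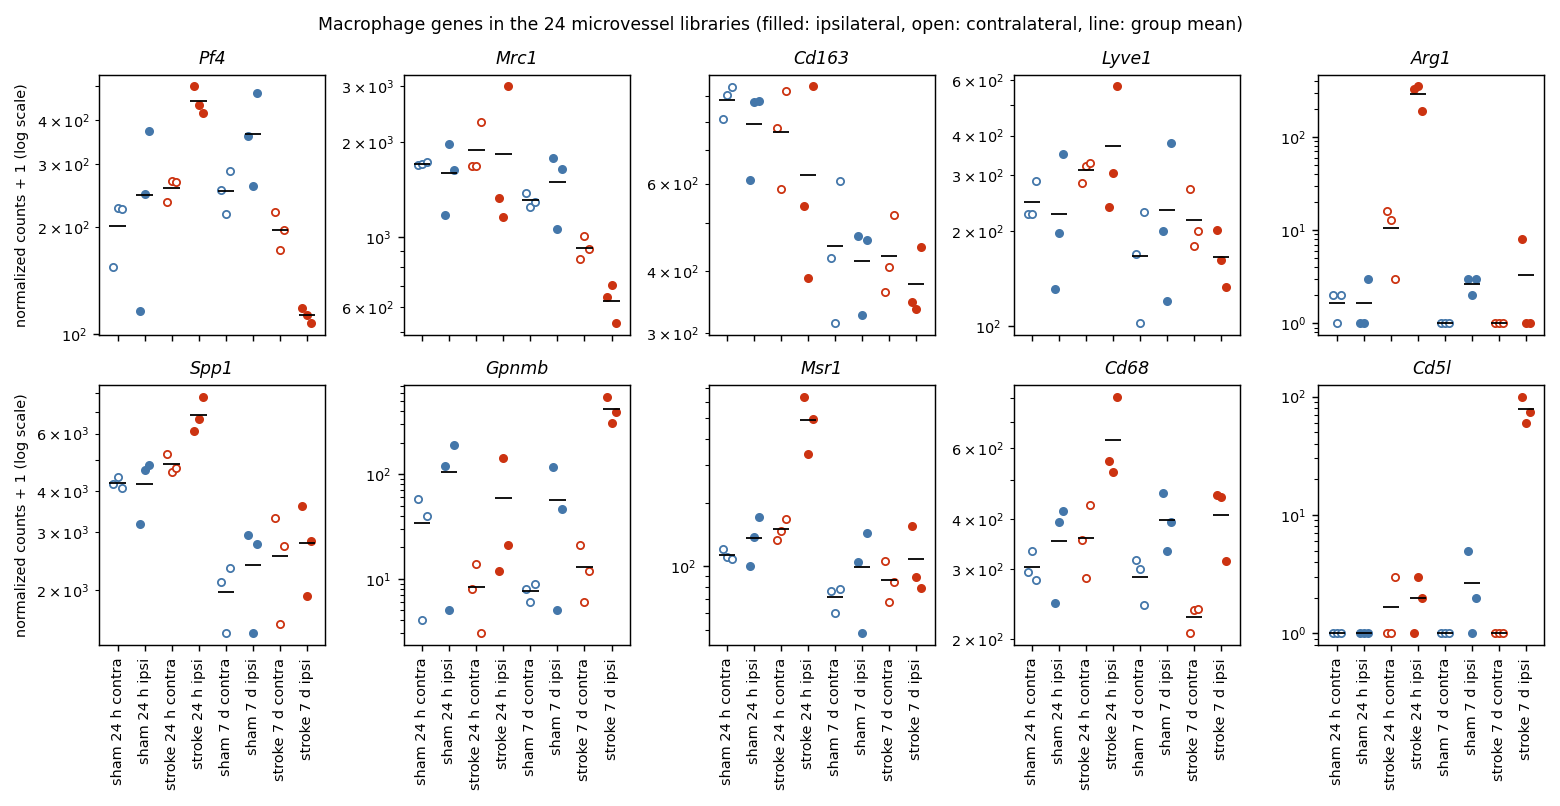
Normalized counts plus 1 of the 10 macrophage genes on a log scale in each of the 24 libraries, with groups on the x axis, filled points for ipsilateral and open points for contralateral hemispheres, and a line at each group mean. Arg1 stood at 189 to 349 normalized counts in the ipsilateral libraries 24 h post-stroke and Cd5l at 59 to 99 in those at 7 days, while Pf4 was lowest in the latter (106 to 117).

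Among the genes of resident perivascular macrophages, Pf4 was the 1 whose differences were called at both time points, in opposite directions. Pf4 (platelet factor 4, a chemokine also stored in platelets, ENSMUSG00000029373, chr5:90772435-90773383 in mm10) was measured at 497, 441 and 418 normalized counts in the 3 ipsilateral libraries 24 h post-stroke, against 115, 247 and 372 in sham ipsilateral libraries, without overlap. At 7 days the order was turned, with 117, 112 and 106 normalized counts post-stroke against 359, 260 and 475 in sham, again without overlap. The mean was 452 ± 40.6 against 245 ± 129 (SD, n = 3 each) at 24 h and 112 ± 5.51 against 365 ± 108 at 7 days. On the scale of log2(normalized count + 1), which is used for all differences here, these are 1.03 ± 0.28 (SE) and -1.66 ± 0.28. The difference at 24 h depended on the first sham library: without it, it was 0.57 and no longer called, nor was it called in a fit of the compared groups alone.

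The contralateral hemispheres of the stroke animals held 234, 269 and 266 normalized counts of Pf4 at 24 h and 220, 171 and 195 at 7 days. The ipsilateral libraries lay above all of these at 24 h and below all of them at 7 days. Because Pf4 is also a platelet gene, 9 other platelet genes were summed: they came to 261 to 409 normalized counts in the ipsilateral libraries 24 h post-stroke and to 143 to 212 in sham, with 1 of 8 tested genes regulated higher. At 7 days the platelet sum was 250 to 302 post-stroke and 153 to 335 in sham, and 0 of 8 platelet genes were regulated in limma's test (1 had an unadjusted p under 0.05, with a higher value). The part of platelets in the Pf4 values was not tested at either time.

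Mrc1 (the mannose receptor CD206, ENSMUSG00000026712, chr2:14229392-14332057) was lower 7 days post-stroke. Its values were 643, 704 and 531 normalized counts against 1778, 1055 and 1642 in sham ipsilateral libraries, a mean of 626 ± 87.7 against 1492 ± 384. This is a log2 difference of -1.23 ± 0.26, with every stroke library below every sham library. At 24 h the 3 ipsilateral stroke libraries were spread more widely than those of any other group for Mrc1, at 1328, 1151 and 2996 normalized counts, around the sham values of 1174, 1963 and 1633. The log2 difference at 24 h was 0.09 ± 0.26, and -0.33 without the library at 2996.

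The Mrc1 values of 3 groups lay in order at 7 days, but neither step between them was called. The contralateral libraries of stroke animals (847, 1004 and 911 normalized counts) lay below those of sham animals (1376, 1241 and 1291) and above the ipsilateral stroke libraries. The step between the contralateral groups was -0.50 ± 0.26, and that between the hemispheres of stroke animals was -0.56 ± 0.26. Between the contralateral stroke and sham groups at 7 days, 2 of the 10 genes had no overlap (Mrc1 and Cd68), as did 9.8% of all tested genes.

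Cd163 (the receptor for haemoglobin bound to haptoglobin, ENSMUSG00000008845, chr6:124304656-124330527) was lower in sham libraries of 7 days than in those of 24 h. Sham libraries held 808, 906 and 937 normalized counts contralaterally and 609, 877 and 881 ipsilaterally at 24 h, but 425, 313 and 606 and 469, 325 and 461 at 7 days. The 7-day sham libraries lay below those of 24 h in both hemispheres, with log2 differences of -1.03 ± 0.27 and -0.91 ± 0.27, neither of which was called. After tMCAO, the ipsilateral hemispheres had 539, 387 and 941 normalized counts at 24 h and 346, 335 and 446 at 7 days. Both ranges overlapped with sham (-0.42 ± 0.27 and -0.15 ± 0.27). Without the library at 941, the 24 h difference was -0.77 and was called lower.

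Lyve1 (a hyaluronan receptor of lymphatic endothelium and of perivascular macrophages, ENSMUSG00000030787, chr7:110850607-110863239, minus strand) overlapped between stroke and sham at both time points. The ipsilateral stroke libraries held 236, 304 and 571 normalized counts at 24 h and 200, 161 and 132 at 7 days, against 130, 196 and 350 and 199, 119 and 377 in sham. The log2 differences were 0.73 ± 0.39 and -0.36 ± 0.39. Within the ipsilateral hemispheres post-stroke, the 7-day libraries lay below the 24 h libraries (-1.09 ± 0.39, not called).

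In the ipsilateral hemispheres 24 h post-stroke, 1 library (replicate 3) had the highest Mrc1, Cd163 and Lyve1 of its group and also the highest sum of 6 fibroblast genes (Col1a1, Col1a2, Col3a1, Dcn, Lum and Pdgfra), 15437 normalized counts against 10473 and 7985 in the other two. At 7 days the fibroblast sum was 6764 to 7062 post-stroke and 9868 to 16301 in sham, with 2 of 6 genes regulated lower. In the contralateral hemispheres of stroke animals at 7 days it was 5342 to 8361. Choroid plexus genes (6 genes) summed to 3118 to 6872 in the ipsilateral libraries 7 days post-stroke and to 19978 to 35210 in sham, with 3 regulated lower. Their contralateral sums at 7 days were 4953 to 22008 post-stroke and 5112 to 51011 in sham. Against the contralateral stroke libraries, 0 of the 6 were regulated lower in limma's test (2 had an unadjusted p under 0.05 and a lower value). The part of fibroblasts and choroid plexus in the lower Mrc1 and Pf4 was not tested. Of the 6 lymphatic endothelial genes, 5 were tested, and 1 was regulated higher and 1 lower at 24 h and 2 lower at 7 days.

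**Figure D2:**
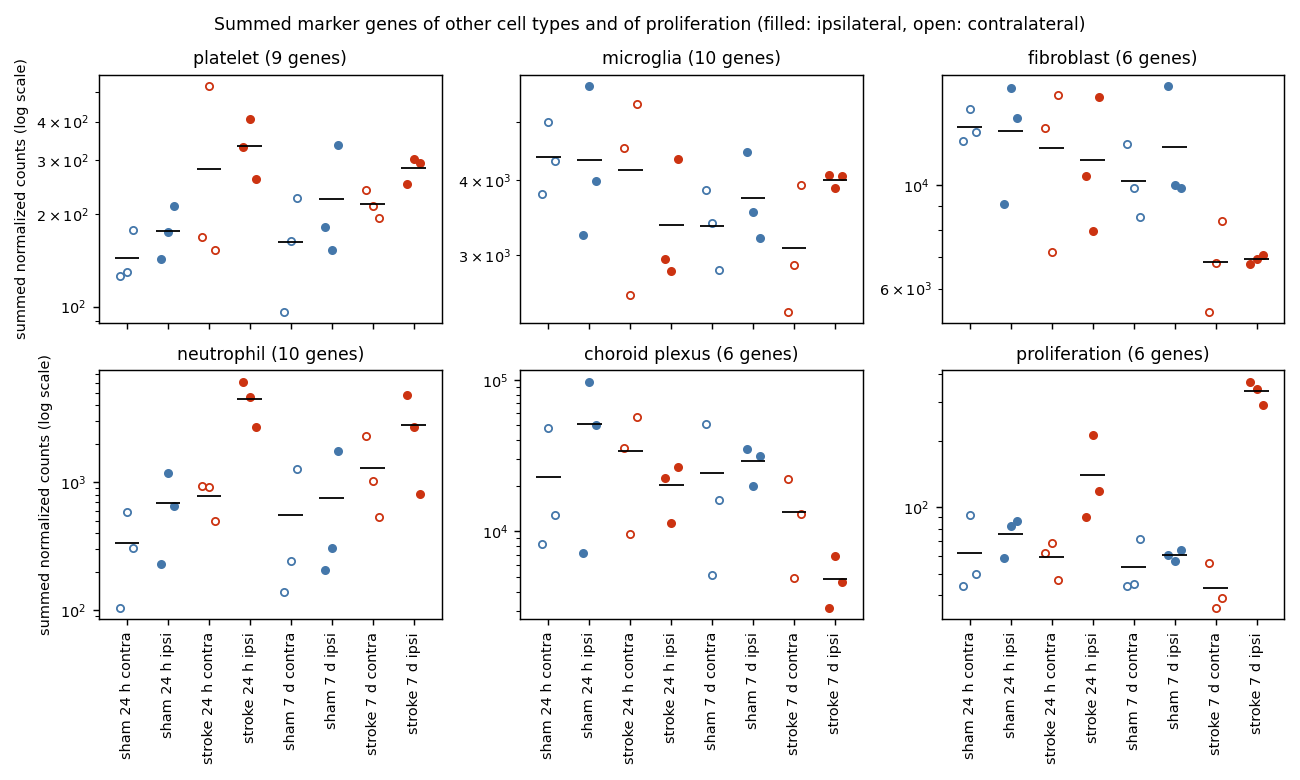
Summed normalized counts on a log scale of marker genes of 5 cell types and of 6 proliferation genes in each library, by group, with a line at the mean. Fibroblast and choroid plexus sums were 6764 to 7062 and 3118 to 6872 in the ipsilateral libraries 7 days post-stroke. In the contralateral stroke libraries of that time, whose ranges overlapped with these, they were 5342 to 8361 and 4953 to 22008. The proliferation sum was high in the ipsilateral libraries 7 days post-stroke (290 to 369).

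Of the genes of infiltrating and repair macrophages, Arg1 was high in 1 group, Gpnmb was highest in another, and Spp1 was lower at 7 days in sham libraries too. Arg1 (arginase 1, which splits arginine into urea and ornithine, ENSMUSG00000019987, chr10:24915221-24927484, minus strand) was measured at 329, 349 and 189 normalized counts in the ipsilateral libraries 24 h post-stroke and at 0, 0 and 2 in sham. The contralateral hemispheres of the same surgery held 15, 12 and 2 normalized counts, and those of sham 1, 0 and 1. At 7 days 5 of the 6 stroke libraries were listed at 0 and the sixth, an ipsilateral one, at 7. The log2 difference of the ipsilateral hemispheres at 24 h was 7.60 ± 0.70 with a pseudocount of 1 and 8.35 with 0.5, since the sham level is near 0 and the size of the difference is set by the pseudocount. Against the contralateral hemisphere it was 5.03 ± 0.70.

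Spp1 (ENSMUSG00000029304, chr5:104435118-104441050) was abundant throughout, also in sham libraries. High levels were thus not confined to stroke libraries, and the cells that Spp1 came from were not tested. Its ipsilateral values 24 h post-stroke, 6126, 6653 and 7788 normalized counts, lay above those of sham (3185, 4661 and 4814) and of the contralateral hemisphere (5207, 4587 and 4726) without overlap, yet the log2 differences of 0.72 ± 0.28 and 0.50 ± 0.28 were not called. The former was called with the replicate number as a block and in a fit of the compared groups alone. At 7 days the stroke libraries (3611, 1913 and 2815) overlapped with sham (2939, 1473 and 2753), and the log2 difference was 0.24 ± 0.28. Sham libraries alone were lower at 7 days than at 24 h, by -0.86 ± 0.28 ipsilaterally and by -1.13 ± 0.28 contralaterally, without overlap. A 7-day value of Spp1 or Cd163 therefore needs the sham of its own time point as the reference.

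Gpnmb (a glycoprotein of lysosomes and melanosomes, ENSMUSG00000029816, chr6:49036615-49070929) was highest in the ipsilateral libraries 7 days post-stroke, at 553, 310 and 396 normalized counts. The contralateral stroke libraries of that time point held 20, 5 and 11. On the log2 scale, sham libraries varied more than for any other of the 10 genes. They held 116, 4 and 46 normalized counts ipsilaterally at 7 days and 118, 4 and 191 at 24 h. The log2 difference to sham at 7 days was 3.76 ± 1.27 and that to the contralateral hemisphere was 5.16 ± 1.27. The former rested on the sham spread: it was 2.46 without the second sham library, was not called without either the second or the third sham library, without any 1 of the 3 stroke libraries or with a pseudocount of 0.5, and was called without the first. At 24 h the ipsilateral stroke libraries (11, 142 and 20) lay within the sham range, with a difference of -0.55 ± 1.27.

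The scavenger receptor, the lysosomal protein and the secreted protein each had a time course of their own. Msr1 (scavenger receptor class A, which binds modified lipoproteins, ENSMUSG00000025044, chr8:39581685-39642673, minus strand) was measured at 634, 340 and 498 normalized counts ipsilaterally 24 h post-stroke, above the sham values of 99, 136 and 170 and the contralateral values of 132, 146 and 167. The log2 differences were 1.84 ± 0.33 and 1.68 ± 0.33. At 7 days it stood at 154, 88 and 78 against 104, 47 and 142 in sham, with overlap (0.20 ± 0.33).

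Cd68 (a heavily glycosylated membrane protein of lysosomes, ENSMUSG00000018774, chr11:69664213-69666153, minus strand) held 556, 524 and 808 normalized counts ipsilaterally 24 h post-stroke against 246, 393 and 417 in sham, a log2 difference of 0.85 ± 0.21 without overlap. At 7 days the reference decided the result. The ipsilateral stroke libraries (458, 454 and 313) overlapped with sham ipsilateral libraries (464, 331 and 393; 0.04 ± 0.21), but lay above the contralateral ones (206, 236 and 237; 0.83 ± 0.21). That contralateral difference was 0.74 and no longer called without the first ipsilateral stroke library. Sham ipsilateral libraries at 7 days also lay above sham contralateral ones (315, 299 and 243), by 0.46 ± 0.21, which was not called.

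Cd5l (a secreted scavenger protein of macrophages, ENSMUSG00000015854, chr3:87357881-87371073) was measured at 99, 59 and 73 normalized counts in the ipsilateral libraries 7 days post-stroke and at no more than 4 in any of the other 21 libraries. The contralateral stroke libraries of that time point were listed at 0, 0 and 0, and sham ipsilateral libraries at 4, 0 and 1. The log2 difference to sham was 5.15 ± 0.55, or 5.66 with a pseudocount of 0.5. At 24 h the ipsilateral stroke libraries held 0, 2 and 1 normalized counts.

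**Figure D3:**
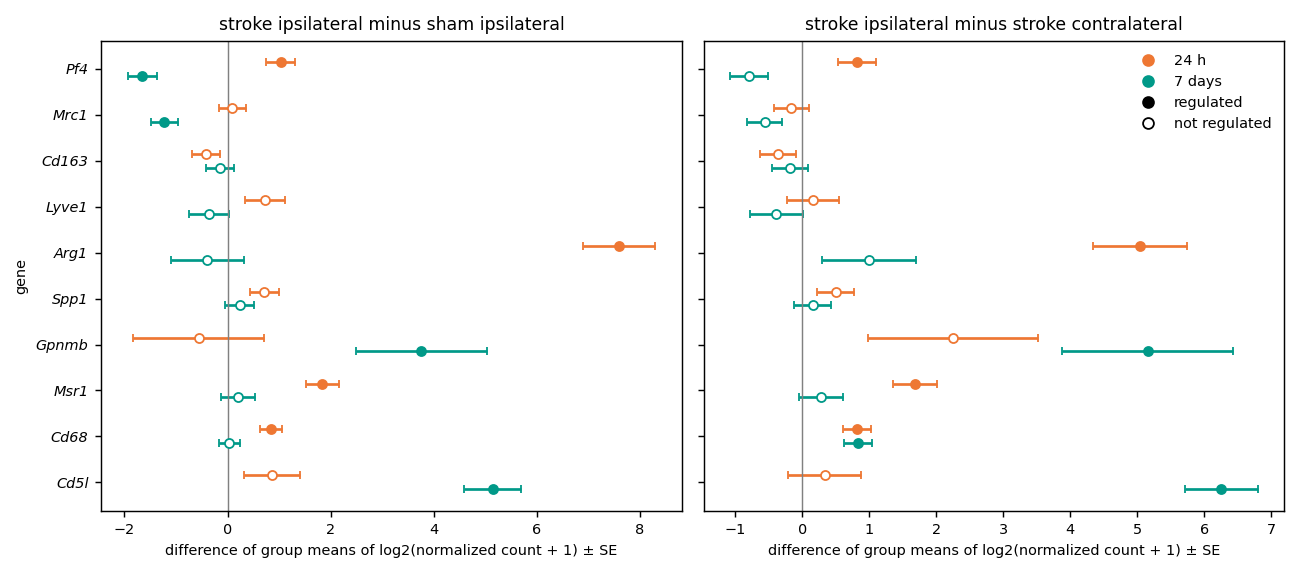
Differences of group means of log2(normalized count + 1) with their SE for the 10 genes, ipsilateral stroke minus sham ipsilateral (left) and minus stroke contralateral (right), at 24 h and 7 days, with filled points for genes called regulated. Pf4 lay at 1.03 at 24 h and at -1.66 at 7 days against sham, Arg1 was called at 24 h and Cd5l and Gpnmb at 7 days.

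A gene was called regulated with a Benjamini-Hochberg adjusted p under 0.05 over 15982 genes in limma's test and a difference of at least 1.5-fold in size. Against sham ipsilateral hemispheres, 4 of the 10 genes were called higher at 24 h (Pf4, Arg1, Msr1 and Cd68), where 10% of all tested genes were, and 0 were called lower, where 8.23% of all genes were. 1 further gene had an unadjusted p under 0.05 there, Spp1, which was higher. At 7 days 2 were called higher (Gpnmb and Cd5l) and 2 lower (Pf4 and Mrc1), with 3.27% and 9.95% of all genes. Groups did not overlap for 5 of the 10 genes at 24 h and for 4 at 7 days, and for 49% and 30% of all genes. As the genes were chosen with these contrasts known, nothing is read from these counts.

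Against the contralateral hemisphere of the stroke animals, 4 of the 10 were called higher at 24 h (the same 4, with 8.51% of all genes higher and 5.14% lower) and 3 at 7 days (Gpnmb, Cd68 and Cd5l, with 3.03% higher and 9.98% lower). The Pf4 call at 24 h in this comparison (0.81 ± 0.28) was lost whenever any 1 of the 6 libraries was left out, with values between 0.74 and 0.87. None of the 10 was called lower than contralaterally at 7 days. In limma's test 5 of the 10 had an unadjusted p under 0.05 there, 3 of them the genes called higher. The others, Pf4 (-0.79 ± 0.28) and Mrc1 (-0.56 ± 0.26), were lower, and their groups did not overlap. Pf4 was called lower there with the replicate number as a block and in a fit of the compared groups alone. These comparisons share the ipsilateral stroke libraries with those against sham and are no independent set.

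Between the 2 time points, 7 of the 10 genes were called in the ipsilateral stroke libraries. Lower at 7 days than at 24 h were Arg1 (-7.13 ± 0.70), Msr1 (-2.21 ± 0.33), Pf4 (-2.005 ± 0.28), Mrc1 (-1.42 ± 0.26), Spp1 (-1.34 ± 0.28) and Cd68 (-0.62 ± 0.21), while Cd5l was higher (5.39 ± 0.55). Of all genes 3.72% were higher and 8.44% lower. Of the 10 genes, 9 had no overlap, as did 34.2% of all genes. Of the 7 genes, Spp1 (-0.86), Msr1 (-0.57) and Mrc1 (-0.10) were also lower at 7 days than at 24 h in sham ipsilateral libraries. Arg1 (0.86), Pf4 (0.69), Cd68 (0.19) and Cd5l (1.11) were higher there. Cd163 was lower there as well (-0.91), and none of these sham differences was called. Gpnmb (3.63 ± 1.27) was not called, but was with a minimum mean of 20, with median centring, with the replicate block and in a fit of these groups alone. The block called 9 of the 10 genes, with Cd163 (-0.64), Lyve1 and Gpnmb gained and Cd68 lost. Centring each library on its median shifted all genes by 0.105 in this comparison and took the call from Cd68 (-0.51). The call of Cd68 was also lost with the replicate block and without the first (-0.69) or the third (-0.42) library at 24 h or the second (-0.70) or the third (-0.44) at 7 days.

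The difference between the stroke effects, 7 days minus 24 h, each against its own sham, was called for 5 of the 10 genes (8.12% of all genes): Arg1 (-7.99 ± 0.99), Pf4 (-2.69 ± 0.40), Msr1 (-1.64 ± 0.46), Mrc1 (-1.32 ± 0.37) and Cd5l (4.28 ± 0.77). Gpnmb, at 4.32 ± 1.80, was not called. The calls of Mrc1 and Msr1 were lost when the fit held only the 4 compared groups. Both were also lost without the first sham library at 24 h (-1.12 and -1.44), without the first (-1.18 and -1.53) or the third (-1.23 and -1.31) sham library at 7 days, and without the third stroke library at 7 days (-1.21 and -1.45). Msr1 was further lost without the first stroke library at 24 h (-1.44) or the second at 7 days (-1.54). Gpnmb was called without the second sham library at 24 h (5.95).

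In the comparisons that hold no ipsilateral stroke library, 0 of the 10 genes were called in limma's test, where few or no genes were. Called were 0% of all genes between contralateral stroke and sham at 24 h (1 of the 10 with an unadjusted p under 0.05, Arg1, 2.43 ± 0.70) and 0.0313% at 7 days (0 of the 10). Called were 0% between the sham hemispheres at 24 h (0 of the 10 with an unadjusted p under 0.05) and 0% at 7 days (1 of the 10, Cd68). Between the time points, 0.476% of genes were called in sham ipsilateral libraries (3 of the 10 with an unadjusted p under 0.05, Pf4, Cd163 and Spp1) and 0.332% in contralateral ones (2 of the 10, Cd163 and Spp1).

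The other genes of macrophages were taken from 9 lists with 100 symbols, none of them among the 10, of which 92 were in the table and 91 were tested. At 24 h 41 of the 91 were regulated higher and 7 lower than in sham, with a median log2 difference of 0.74, against -0.02 over all tested genes, with calls for 10% upward and 8.23% downward. At 7 days 16 were higher and 9 lower, with a median of 0.38, against 0.02 over all tested genes, with calls for 3.27% upward and 9.95% downward. The counts of lower genes were thus near the share over all genes at both times. The count of higher genes at 7 days fell to 7 without the second sham library and to 8 without the first stroke library. The p-values in this and the next paragraphs are adjusted by Benjamini-Hochberg over all genes in limma's test. The lists too were chosen with earlier results of these data known. Their counts and p-values therefore describe the listed genes and give no independent support for a change in macrophages.

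**Figure D4:**
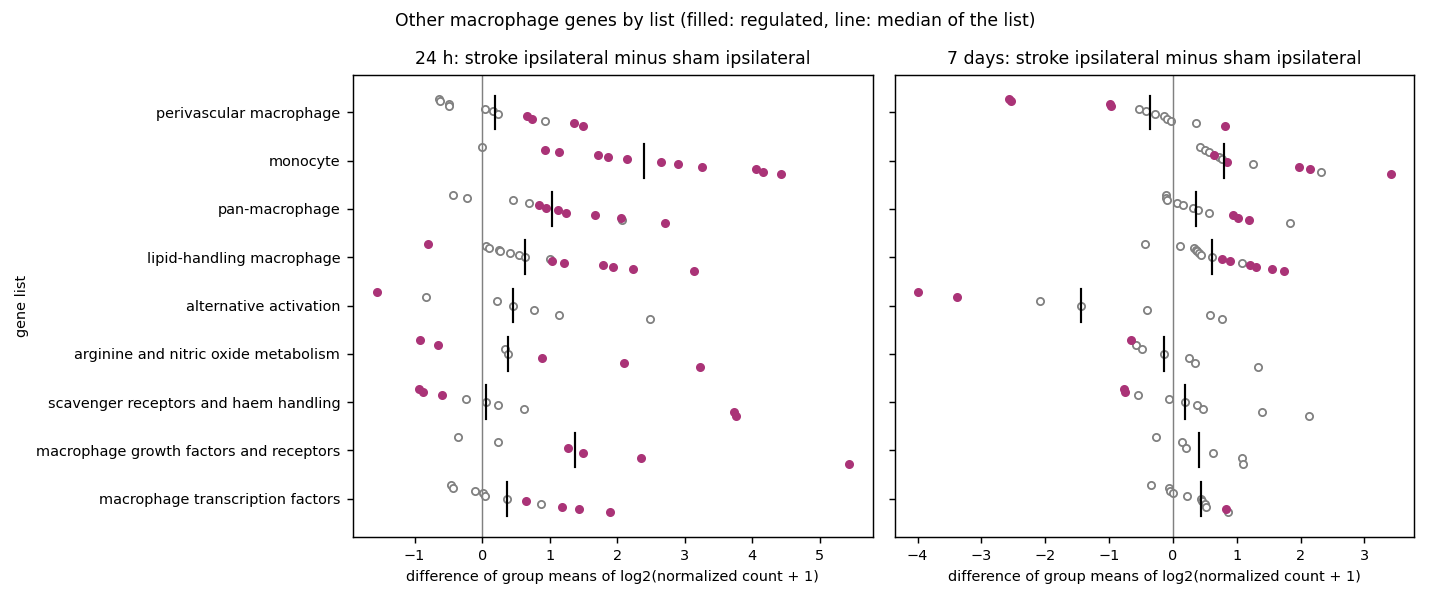
Differences of group means of log2(normalized count + 1), ipsilateral stroke minus sham, for the 91 tested genes of 9 macrophage lists at 24 h (left) and 7 days (right), filled where regulated, with a line at the median of each list. The monocyte list lay highest at 24 h by its median of 2.39, and alternative activation lowest at 7 days by its median of -1.44.

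Calls among further genes of perivascular macrophages (12 tested) fell on different genes at the 2 times, and the 1 gene called at both was higher at both. At 24 h 4 were higher, with 0 lower (2 had an unadjusted p under 0.05 and a lower value). Siglec1, a sialic acid receptor, stood at 221, 276 and 314 normalized counts post-stroke and 80, 116 and 90 in sham (1.497 ± 0.23, adjusted p = 0.00011). The chemokine gene Ccl8 was higher by 1.35 ± 0.46 (adjusted p = 0.032), a call lost without the first sham library (1.03) or without the second (1.02) or the third (1.05) stroke library. At 7 days 4 were lower and 1, Siglec1, was higher (0.82 ± 0.23, adjusted p = 0.019).

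The C-type lectin genes led the decreases at 7 days. Cd209f stood at 6, 9 and 10 normalized counts post-stroke against 53, 45 and 63 in sham (-2.56 ± 0.39, adjusted p = 0.000123). Mgl2 stood at 19, 42 and 25 against 192, 118 and 190 (-2.54 ± 0.34, adjusted p = 3.58e-05). Both have close paralogs, and reads shared by several genes had been excluded by the authors. The summed level of the 12 genes was 8448 to 10402 normalized counts post-stroke at 7 days and 8461 to 10504 in sham, and these ranges overlapped. The largest parts of this sum were Stab1 (mean 4454 post-stroke and 3476 in sham) and Dab2 (3090 and 3898). The sum therefore says little about the genes with low counts, such as Cd209f and Mgl2.

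Monocyte genes (12 tested) were regulated higher in 11 cases at 24 h and in 5 at 7 days, and lower in 0 (0 with an unadjusted p under 0.05 and a lower value at either time). Chil3, a secreted chitinase-like protein, rose from 52, 203 and 91 normalized counts in sham to 3089, 1181 and 2663 at 24 h (4.42 ± 0.66, adjusted p = 7.43e-05). At 7 days it still stood at 1790, 673 and 364 against 72, 48 and 101 (3.41 ± 0.66, adjusted p = 0.00108). Clec4e, a lectin receptor, was higher at 24 h by 4.16 ± 0.89 (adjusted p = 0.00181) and the coagulation factor gene F10 at 7 days by 2.14 ± 0.63 (adjusted p = 0.022). Several of these genes are also used by neutrophils, whose 10 marker genes summed to 2719 to 6109 normalized counts post-stroke and 231 to 1192 in sham at 24 h. Of 8 tested neutrophil genes, 7 were higher at 24 h and 2 at 7 days, and their part in the monocyte list and in Arg1 was not tested.

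Genes of macrophages in general (12 tested) were higher in 7 cases at 24 h and in 3 at 7 days. Itgam, the CD11b integrin chain that neutrophils and microglia also carry, stood at 252, 195 and 231 normalized counts at 24 h against 23, 36 and 45 in sham (2.71 ± 0.26, adjusted p = 8.68e-07), and was higher by 1.02 ± 0.26 at 7 days (adjusted p = 0.0104). Ptprc, the pan-leukocyte marker CD45, was higher by 2.05 ± 0.33 at 24 h (adjusted p = 0.000136) and by 1.199 ± 0.33 at 7 days (adjusted p = 0.0144). Of 10 microglia markers, 3 were regulated lower at 24 h and 0 higher (0 with an unadjusted p under 0.05 and a higher value). At 7 days 1 was higher and 1 lower. The microglia sum was 2821 to 4344 normalized counts post-stroke at 24 h and 3236 to 5741 in sham, and 3883 to 4083 and 3198 to 4452 at 7 days.

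Genes of lipid handling (15 tested) were higher in 6 cases at both times, with 1 lower at 24 h. At 24 h Mmp12, a macrophage elastase, stood at 132, 143 and 64 normalized counts against 8, 11 and 16 (3.14 ± 0.62, adjusted p = 0.000935). Fabp4, a fatty acid carrier that endothelium also uses, was higher by 2.23 ± 0.54 (adjusted p = 0.00442), with 1914 normalized counts in 1 stroke library and 434 and 319 in the others. Igf1, a growth factor, was lower at 24 h (-0.80 ± 0.25, adjusted p = 0.0209). At 7 days Itgax, the CD11c integrin chain, stood at 98, 94 and 68 normalized counts against 28, 17 and 32 (1.75 ± 0.31, adjusted p = 0.000445), and Lgals3 (galectin 3) was higher by 1.56 ± 0.32 (adjusted p = 0.00167).

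Genes of alternative activation (7 of 10 in the table) included 1 that was lower at 24 h and 2 at 7 days, and 0 that were higher (1 at each time had an unadjusted p under 0.05 and a higher value). Retnla, a secreted protein induced by interleukin 4, stood at 1, 2 and 2 normalized counts 7 days post-stroke against 62, 21 and 51 in sham (-3.99 ± 0.45, adjusted p = 7.3e-06), and was lower at 24 h by -1.56 ± 0.45 (adjusted p = 0.013). The chemokine gene Ccl24 stood at 17, 19 and 24 against 239, 72 and 584 at 7 days (-3.38 ± 0.64, adjusted p = 0.000909). Arg1, often named with these genes, was high at 24 h while Retnla was low.

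Genes of arginine and nitric oxide metabolism (7 tested) accompanied Arg1 at 24 h with 3 higher and 2 lower. Arg2, the mitochondrial arginase, stood at 55, 33 and 35 normalized counts against 3, 6 and 2 in sham (3.22 ± 0.62, adjusted p = 0.00073). Odc1, which makes putrescine from ornithine, stood at 5868, 5754 and 2856 against 635, 938 and 2064 (2.10 ± 0.44, adjusted p = 0.00147). The cationic amino acid transporters Slc7a1 (-0.92 ± 0.25, adjusted p = 0.00977) and Slc7a2 (-0.65 ± 0.17, adjusted p = 0.00809) were lower. At 7 days 1 gene, Slc7a2, was lower (-0.65 ± 0.17, adjusted p = 0.0124) and 0 were higher (1 had an unadjusted p under 0.05 and a higher value).

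Scavenger receptors and haem handling genes (9 tested) were regulated both ways, with 2 higher and 3 lower at 24 h and 2 lower at 7 days. Hmox1, the inducible haem oxygenase, stood at 6397, 7461 and 2069 normalized counts against 248, 408 and 415 at 24 h (3.73 ± 0.35, adjusted p = 5.77e-07). Hp, haptoglobin, which binds free haemoglobin for uptake by Cd163, was higher by 3.76 ± 0.74 (adjusted p = 0.00093). Slc40a1, the iron exporter ferroportin, was lower at both times (-0.88 ± 0.19, adjusted p = 0.00157, and -0.76 ± 0.19, adjusted p = 0.0071). Colec12, a scavenger receptor of vascular cells, was lower by -0.94 ± 0.23 at 24 h (adjusted p = 0.00564) and by -0.77 ± 0.23 at 7 days (adjusted p = 0.027).

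Growth factors and receptors of macrophages (6 tested) were higher in 4 cases at 24 h. Csf3, granulocyte colony-stimulating factor, stood at 1086, 619 and 439 normalized counts against 4, 10 and 66 (5.43 ± 1.59, adjusted p = 0.0147), and Csf2rb, the shared receptor chain for interleukin 3, interleukin 5 and GM-CSF, was higher by 2.35 ± 0.45 (adjusted p = 0.000675). At 7 days 0 of the 6 were regulated in limma's test (2 had an unadjusted p under 0.05). Transcription factors of macrophages (11 tested) were higher in 4 cases at 24 h, led by Cebpb (1.89 ± 0.46, adjusted p = 0.00446) and Spi1, which encodes PU.1 (1.44 ± 0.32, adjusted p = 0.00243). Proliferation genes, of which Mki67 marks cycling cells, were higher at 7 days in 5 of 5 tested genes, with a sum of 290 to 369 normalized counts against 57 to 64 in sham.

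Across the 24 libraries, the 10 genes followed each other unequally. These correlations are of log2(normalized count + 1) and are a description of libraries that share groups, depth and preparation. Arg1 and Msr1 had a Pearson r of 0.88, Spp1 and Msr1 of 0.86, Mrc1 and Cd163 of 0.74 and Gpnmb and Cd5l of 0.70. Mrc1 and Cd5l lay lowest at -0.59. Arg1 and Cd5l were high in 1 group each, so that their r with other genes mostly reflects the values of that group. Within the 12 sham libraries Cd163 and Spp1 had an r of 0.95, over groups that differ in time of collection, and Mrc1 and Pf4 of 0.30.

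**Figure D5:**
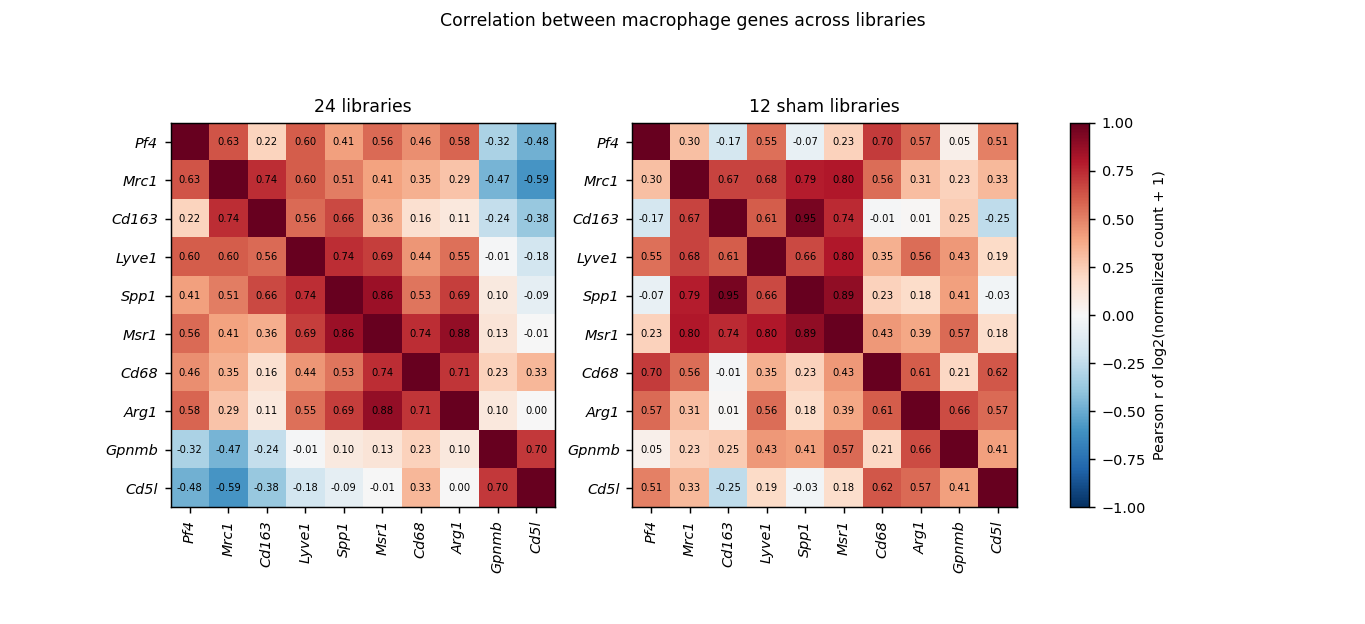
Pearson correlations of log2(normalized count + 1) between the 10 genes over 24 libraries (left) and over the 12 sham libraries (right), on a colour scale from -1 to 1. Mrc1, Cd163, Lyve1, Spp1 and Msr1 form a block of positive values in both panels, and Gpnmb and Cd5l a pair at 0.70 in the left panel; Arg1 and Cd5l are near 0 normalized counts in the sham libraries, so that their values on the right hold no information.

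The 3 genes most like each of the 10, were sought in the same 24 libraries among tested genes whose mean exceeded 20 normalized counts. Pf4 was nearest to Phlda1 (r = 0.91), Nts (0.89) and Clec4n (0.86), and Mrc1 to Coch (0.90), Dcn (0.88) and Slc7a11 (0.87), of which Dcn is a fibroblast proteoglycan. Cd163 was nearest to Slc1a5 (0.91), Carmil1 (0.89) and Ptpn9 (0.87). Lyve1 was nearest to Ms4a4a (0.85), Dmp1 (0.82) and Fcgr3 (0.81).

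Arg1 was nearest to Mmp3 (0.94), Erlin1 (0.94) and Hmox1 (0.94), and Msr1 to Mmp19 (0.95), H6pd (0.94) and Ms4a6d (0.94). Mmp3, a matrix metalloproteinase, ranged from 0 to 1996 normalized counts. Spp1 was nearest to Pla1a (0.95), Scara5 (0.90) and Hspa13 (0.89), and Cd68 to Nckap1l (0.94), Slc11a1 (0.91) and AB124611 (0.90). Gpnmb had the lowest values of the 10, with Lag3 (0.77), Traf1 (0.73) and Lat2 (0.69). Cd5l was nearest to Ppic (0.87), Ifngr1 (0.86) and Ctsd (0.85), which encodes the lysosomal protease cathepsin D. For Arg1 and Cd5l, the nearest genes are mainly those that were also high in the 1 group where each was high.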

How the data were processed

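Stranded mRNA libraries of microvessels were sequenced on an Illumina instrument. The authors trimmed reads, aligned them to mm10 with STAR, set aside those with several matching genes or regions, and used DESeq2 for normalization. The submitters' processing notes name STAR 2.5.2b, featureCounts 1.5.1 and DESeq2 1.6.2, and the paper's methods give other versions of STAR and DESeq2. The deposited values are a score: reads of a gene divided by a size factor per library, rounded to whole numbers. Of 4 samples made per group, 3 were analysed. The methods name 4 samples in all as outliers, fewer than were left out, and do not explain the others. Groups follow the labels.

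Values plus 1 were put on the log2 scale, and the 15982 genes with a mean above 5 were fitted in R 4.3.3 with limma 3.58.1 (mean-variance trend, all 8 groups). The Benjamini-Hochberg adjustment spanned all of them. The limits on fold and mean were those of the paper's methods. The fit was tested on simulated data. Exon lengths are from GENCODE M21, promoter windows from RefSeq (GRCm38.p6). Tables and figures were made with Python 3.11.15, numpy 2.4.6, pandas 2.3.3 and matplotlib 3.10.9.

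The 10 genes and the 22 lists (9 of macrophages and 13 of other markers) were chosen with earlier results of these data known. Named genes are the 10, up to 2 increases and 2 decreases per macrophage list at each time point, the 3 nearest genes of each, and marker genes. 1 list gene that this rule names is not reported here. Other genes behind counts of 5 or fewer were named after their values were seen. Same-numbered libraries correlated in their deviations (every pair above 0.1) only between the hemispheres of sham animals, at 0.145 to 0.41 at 24 h and 0.325 to 0.467 at 7 days. P-values measure only the spread between these pools. Alternatives were a pseudocount of 0.5, no filter, a minimum mean of 20, median centring, a replicate block, only the compared groups, no fold limit and each library left out. DESeq2 was not run here, since the values are not counts.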

Additional observations from a re-analysis of the deposited data

Results flagged for a closer look

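The stroke effect on 5 of the 10 genes differed between the time points, and was tested as the difference of the 2 effects (7 days minus 24 h, on the log2 scale) in limma's fit. The values were -7.99 for Arg1, -2.69 for Pf4, -1.64 for Msr1, -1.32 for Mrc1 and 4.28 for Cd5l. Pf4 was the gene whose groups did not overlap at either time and whose direction turned. As these 10 genes were chosen from such contrasts, the values describe them and add no support. Over all 91 tested genes of the macrophage lists the difference was called higher for 3 and lower for 11, where 8.12% of all genes were called either way. The 29 named list genes were picked for large changes at 1 of the times, which favours such a difference, and it was called for 7 of them, namely Hmox1 (-3.26), Odc1 (-2.58), Retnla (-2.43), Mgl2 (-2.05), Cd209f (-1.93), Itgam (-1.69) and Igf1 (1.18). The calls of Cd209f, Retnla and Igf1 were lost when 1 of several libraries was left out. Groups of 3 libraries are too small for a test of single outlying libraries.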

How the results depend on the processing

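Values were recomputed under each alternative that could give one, and left-out libraries bear only on the comparisons that hold them. Of 1604 recomputed values of the 10 genes, 1495 kept their sign and call, 53 without a call changed sign or moved to or from 0 (Mrc1 at 24 h among them), 35 lost the call, 21 gained it and 0 called values reversed. Of 1302 values of the named list genes, 1204 kept both, 24 without a call changed sign or moved to or from 0, 62 lost and 12 gained the call and 0 called values reversed. A minimum mean of 20 removed Cd5l, which left 3 of the 10 genes called at 7 days against sham, 2 against the contralateral hemisphere and 4 in the difference of stroke effects. With the replicate block, 1 of the 10 genes was regulated between the times in sham ipsilateral libraries (Cd163) and 2 in contralateral ones (Cd163 and Spp1), against 0 without it. With only the compared groups, the difference of stroke effects was called for 3 of the 10 genes against 5, and 1 gene (Spp1) was called between the times in sham contralateral libraries. With 1 library left out at a time, the difference of stroke effects was called for 3 to 6 of the 10 genes, and of the other macrophage genes 7 to 22 were higher at 7 days and 5 to 9 lower, the lowest without the first sham library. Other counts of genes stayed within 1.5 times. Among the named list genes at 24 h, leaving out the first sham library ended the calls of Ccl8 (1.03), Slc7a1 (-0.79) and Csf3 (4.62), the second those of Igf1 (-0.63) and Retnla (-1.26). Leaving out the first stroke library ended those of Igf1 (-0.60) and Csf3 (5.08), the second those of Ccl8 (1.02) and Slc7a2 (-0.53), and the third those of Ccl8 (1.05) and Retnla (-1.13). At 7 days, leaving out any 1 of several sham or stroke libraries ended the calls of Siglec1 (0.68 to 0.73), F10 (1.93 to 1.95), Ptprc (0.86 to 1.15), Slc7a2 (-0.57 and -0.49) and Colec12 (-0.80 to -0.68), and that of Itgam ended without the first stroke library (0.83). Why calls changed was not tested, beyond the fewer libraries in a fit. The block is a choice of the fit, since same-numbered libraries of stroke and sham did not deviate together (-0.252 to -0.113 at 24 h).

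Low values limit Arg1, Cd5l and Gpnmb, whose differences depend on the pseudocount or on a few sham libraries. Each group rests on 3 pools, and the reads per library are estimates. Vessel preparations hold several cell types, and no measure separates them here.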

Other observations

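Markers of further cell types were measured beside the macrophage genes, in ipsilateral stroke against sham hemispheres. At 24 h 1 of 2 tested T cell genes, 2 of 5 B cell genes and 2 of 4 dendritic cell genes were regulated higher in limma's test, while 1 of 6 mural, 3 of 6 astrocyte and 2 of 8 endothelial genes were lower. Of all tested genes 10% were called higher and 8.23% lower at 24 h, and 3.27% and 9.95% at 7 days. With so few genes per list, nothing is read from these counts about the cell types. At 7 days 1 T cell, 1 dendritic cell and 2 astrocyte genes were lower. In the other direction, 1 T cell, 1 B cell and 1 astrocyte gene had an unadjusted p under 0.05 and a higher value. No mural or endothelial gene was regulated at 7 days, with 2 mural genes (both lower) and 1 endothelial gene (higher) at an unadjusted p under 0.05.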
